A study of Mus musculus with 9 samples.

Results

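Splicing factors and hnRNP proteins were followed across mouse spermatogonia of vitamin A deficient (VAD) and normally fed animals. The members were the probe sets of an Affymetrix mouse array that carry a single gene symbol of the SR proteins (Srsf), the hnRNP proteins (Hnrnp), the SF3a and SF3b complexes, the small nuclear ribonucleoprotein (snRNP) proteins (Snrp), U2AF or the Prp factors (Prpf), together with Nono, Sfpq, Pspc1, Arglu1 and Clasrp. They made up 189 probe sets of 67 genes, out of 45037 probe sets on the array that are not controls. A further 18 probe sets matched the names but list several genes and were not counted. The study held 9 arrays in 3 groups of 3, all of spermatogonia from adult Balb/C mice. The first group had been on the VAD diet for 18 weeks and the second for 25 weeks, and the control group ate a normal diet. The age of the control mice is not given, so age and time on the diet cannot be told apart. Each preparation combined the testes of 2 mice, and the germ cells were plated overnight and separated by sedimentation through albumin to an estimated purity above 90%.

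Splicing removes introns from pre-mRNA on the spliceosome, whose snRNPs carry a ring of Sm proteins around their RNA. U2AF and the SF3a and SF3b complexes recognise the 3′ splice site and the branch point, and the Prp factors build and remodel the catalytic core. SR proteins bind mostly exonic sequences and favour the use of nearby splice sites, while hnRNP proteins coat nascent transcripts and often act against that use. The testis is known for a very high rate of alternative splicing, and retinoic acid, made from vitamin A, is needed for spermatogonia to differentiate.

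Of the 80 RefSeq promoter windows that matched 59 of the member genes, the 13 windows of the 10 SR genes are the ones closest to the results, since SR genes rose most often. The 250 bases upstream of the annotated start were searched on both strands for 4 short motifs. These were AGGTCA, the core sequence bound by retinoid receptors, then CCAAT, the CCAAT box, then GGGCGG, the GC box, and lastly CGGAAG, the core sequence bound by Ets factors. Windows of Srsf6 and Srsf3 are printed for the SR genes with the highest fitted rises, and that of Snrpd3 for the Sm protein gene with a probe set that fell. All are from RefSeq on GRCm38.p6, on the + strand and 5′ to 3′, with every match on either strand in capitals.
Srsf6 chr2:162931258-162931507: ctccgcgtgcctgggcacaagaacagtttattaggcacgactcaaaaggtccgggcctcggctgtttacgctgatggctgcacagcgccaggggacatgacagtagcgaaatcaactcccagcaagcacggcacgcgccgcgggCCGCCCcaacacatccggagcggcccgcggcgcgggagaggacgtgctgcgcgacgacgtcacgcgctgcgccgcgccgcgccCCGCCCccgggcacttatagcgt
Srsf3 chr17:29032410-29032659: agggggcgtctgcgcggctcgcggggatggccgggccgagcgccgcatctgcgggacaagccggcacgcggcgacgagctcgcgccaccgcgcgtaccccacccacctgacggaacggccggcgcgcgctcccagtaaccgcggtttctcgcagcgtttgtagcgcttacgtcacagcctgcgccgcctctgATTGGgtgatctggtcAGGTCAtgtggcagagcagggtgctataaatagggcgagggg
Snrpd3 chr10:75517792-75518041: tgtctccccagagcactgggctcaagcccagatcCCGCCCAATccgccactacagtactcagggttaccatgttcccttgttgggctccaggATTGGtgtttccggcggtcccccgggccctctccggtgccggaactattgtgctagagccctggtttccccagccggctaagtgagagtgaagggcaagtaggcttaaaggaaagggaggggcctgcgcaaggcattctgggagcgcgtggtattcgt
Srsf6 held 2 GC boxes, Srsf3 held 1 CCAAT box and 1 retinoid receptor core, and Snrpd3 held 2 CCAAT boxes and 1 GC box, 1 CCAAT box overlapping the GC box. The GC box was found in 92.3% of SR windows and 61.2% of all member windows, against 32.7% of the 32851 windows of all genes. The retinoid receptor core was found in 15.4% of SR windows and 10.0% of member windows, against 14.0% of all windows. The CCAAT box was found in 23.1% of SR windows and 48.8% of member windows, against 33.8% of all windows, and the Ets core in 46.2% and 45.0%, against 13.6%. These shares describe letters in a window and are not evidence that a factor binds.

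The arrays were not alike. Deposited signals, as trimmed means, lay between 55.6 and 186 on 7 arrays and at 23.3 and 23.0 on VAD 25-week replicate 3 and control replicate 3, called the dim pair here. The correlation across probe sets was 0.889 within the dim pair and 0.776 to 0.810 between it and the other arrays, which correlated at 0.935 to 0.981 among themselves. Signals were therefore put on a log2 scale, quantile normalized and fitted with limma with the group and the dim pair as terms, and a probe set is said to rise or fall where its adjusted p was under 0.05. Whether the 3 preparations of a group came from separate batches of animals is not stated, so the p-values measure the spread between these samples. Every call below depends on the dim pair term: with group alone limma called 0 member probe sets in each comparison, although 37 (18 weeks) and 46 (25 weeks) of 171 had an unadjusted p under 0.05, beside 7.25% and 11.9% of all probe sets. VAD 25-week replicates 1 and 2 also had a β-actin 3′ to 5′ signal ratio of 7.82 and 7.92, against 3.32 to 5.74 on the other arrays, while their Gapdh ratio, 3.77 and 4.05, lay within the 3.08 to 5.61 of the others. Without these 2 arrays 39 of 172 member probe sets were called at 25 weeks, beside 12.9% of all, and 29 of the 66 calls given below were among them. The VAD 25-week group is then 1 array, the dim one, assumed to vary like the other groups. Sertoli cell markers were higher in VAD preparations: 7 of 19 measured genes rose at 18 weeks and 12 at 25 weeks. Their summed normalized signal was 1222 to 3168 at 18 weeks and 1548 to 2344 at 25 weeks, against 554.2 to 647.8 in controls, while Sox9, Amh and Krt18 of the same list were below the filter. Of 15 measured spermatogonial markers 2 rose at 18 weeks, and 3 rose and 1 fell at 25 weeks, with Ret, Lin28a, Sall4 and Neurog3 below the filter. Of 17 spermatid markers 6 fell at 25 weeks, and of 14 pachytene spermatocyte markers 3 rose and 1 fell at 18 weeks and 3 rose and 4 fell at 25 weeks. Leukocyte markers rose in 0 of 8 at 18 weeks and 5 of 8 at 25 weeks. Ptprc, C1qa, C1qc, Cd68 and Tyrobp of the same list were below the filter. The summed signal of the 8 was 163.5 to 248.1 and 292.5 to 463, against 165.1 to 346.4 in controls. At 25 weeks 1 of 5 Leydig cell markers rose, and 0 of 4 peritubular myoid and 0 of 3 endothelial markers changed. Hsd17b3 (Leydig), Tagln and Cnn1 (myoid) and Pecam1, Cdh5 and Tie1 (endothelial) were below the filter. Each marker was read by the brightest measured probe set of its gene, with suffixes _x_at and _s_at used last. Over all 13616 genes read so, 1.37% rose and 0.147% fell at 18 weeks, and 9.08% and 8.01% at 25 weeks. The part of these cell types in the results was not tested, and in bulk RNA a change in the share of a cell type and a change in RNA per cell cannot be told apart.

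At 25 weeks of VAD, splicing factors were more often higher than lower than in control spermatogonia, and SR proteins stood highest. Of the 171 member probe sets that passed the filter on low signals, 56 rose and 10 fell. That is 32.7% higher, beside 8.54% of all 27022 probe sets tested, and 5.85% lower, beside 6.32%. The median log2 fold change of the members was 0.31, beside -0.01 over all probe sets. The 56 rises spanned log2 fold changes of 0.37 to 2.32 and the 10 falls -1.88 to -0.44. Of 66 genes measured, 26 had rises alone, 5 had falls alone, 4 had both and 31 had neither. Thus 30 of the 66 had a rise and 9 a fall, beside 1780 and 1412 of all 13616 genes measured. All 3 VAD 25-week arrays lay above all 3 controls for 38 member probe sets (22.2%, beside 9.13% of all) and below them for 10 (5.85%, beside 7.11%). Within the dim pair alone, the median log2 difference of the VAD array from the control array was 0.32 over the 171 member probe sets, beside 0.01 over all. The count of falls moved with the setting. It was 4 without VAD 25-week replicate 1, under median centring or without the variance trend, and 5 without control replicate 1 or VAD 25-week replicate 2. It was 13 without control replicate 3 or VAD 25-week replicate 3, 14 with the dim pair left out, and 20 (with 73 rises) under array weights. The calls over all probe sets moved too, from 6.61% without VAD 25-week replicate 2 to 24.4% under array weights. On the signals as deposited, without normalization between arrays, the median of all probe sets tested was itself shifted by 0.93 at 25 weeks. On that scale 109 of 172 member probe sets were higher and 0 lower by limma, beside 39.1% of all called, and 8 of the 10 that fell lay above control, all but those of Nono and Srsf2.

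At 18 weeks the changes were fewer and all upward. Of 171 member probe sets 15 rose and 0 fell, which is 8.77% beside 1.33% of all probe sets tested for rises and 0.133% for falls. The 15 belong to 10 genes, Srsf1, Srsf3, Srsf6, Hnrnpa2b1, Hnrnpk, Hnrnpm, Sf3a2, Prpf19, Sfpq and Arglu1, with log2 fold changes of 0.56 to 1.49. All 15 also rose at 25 weeks, a comparison that shares the control arrays. The median log2 fold change over the members was 0.27, beside -0.01 over all probe sets. All 3 VAD 18-week arrays lay above all 3 controls for 58 member probe sets (33.9%, beside 11.8% of all) and below them for 6 (3.51%, beside 7.6%). With the dim pair left out 33 of 172 rose, beside 3.98% of all called in either direction. Of the 15 calls 7 were kept under median centring and 0 without the variance trend. Without normalization 0 were called at 18 weeks, with 15 of the 15 still above control. Leaving out any 1 of the 9 arrays moved the count by more than 1.5 times, between 3 without control replicate 1 or 2 and 34 without control replicate 3. Against each other, VAD 25 weeks and VAD 18 weeks did not differ in any member by limma at an adjusted p under 0.05, and in 0 of all probe sets tested. At an unadjusted p under 0.05, 53 member probe sets differed, beside 11.5% of all, 33 of them higher at 25 weeks, and the smallest adjusted p was 0.134. The VAD 25-week arrays lay all above the VAD 18-week arrays for 17 member probe sets (9.94%, beside 7.36% of all) and all below for 26 (15.2%, beside 9.76%). With the dim pair left out 7 passed, beside 1.63% of all probe sets, and with array weights 29, beside 5.74%.

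**Figure D1:**
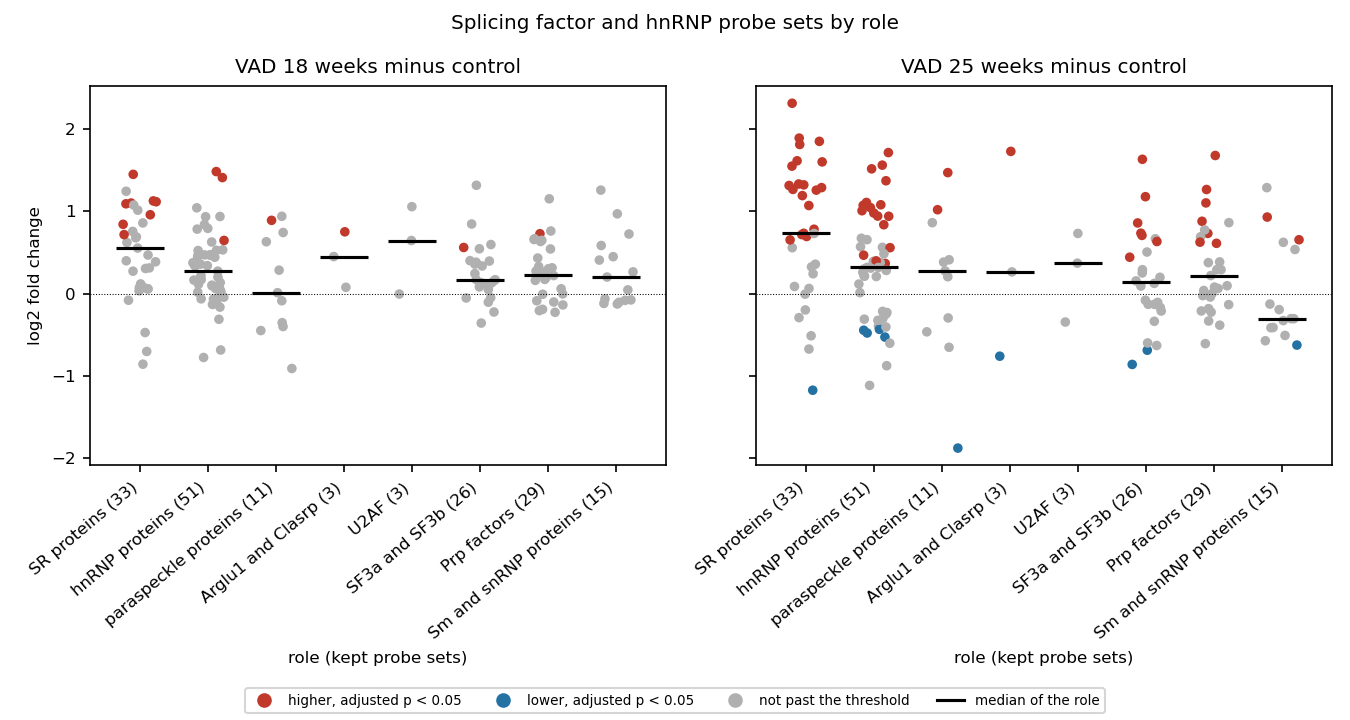
Log2 fold change (y axis) of each measured member probe set by role (x axis, number of probe sets in brackets), VAD 18 weeks minus control on the left and VAD 25 weeks minus control on the right; red rose, blue fell, grey did not pass the threshold, and bars are role medians. SR proteins have the highest median at 25 weeks among roles with 5 or more probe sets, 0.73, and Sm and snRNP proteins the lowest, -0.31.

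SR proteins rose in most probe sets at 25 weeks and in fewer at 18 weeks. Of 33 measured SR probe sets 8 rose and 0 fell at 18 weeks, and 20 rose and 1 fell at 25 weeks, with median log2 fold changes of 0.55 and 0.73. The rises are 24.2% beside 1.33% of all at 18 weeks and 60.6% beside 8.54% at 25 weeks. The 8 rises at 18 weeks were in 3 of the 10 SR genes, 4 in Srsf3, 3 in Srsf1 and 1 in Srsf6. The 20 rises at 25 weeks were in 7 of the 10 SR genes: Srsf1, Srsf2, Srsf3, Srsf6, Srsf10, Srsf11 and Srsf12. Of these, Srsf1 and Srsf3 held 5 rises each, so the shares of probe sets count these genes several times. Srsf4, Srsf5 and Srsf9, each with 1 probe set, had log2 fold changes of -0.01, 0.36 and 0.32 and did not pass. With the dim pair left out the 25-week counts were 20 and 1 of 32, beside 15.7% of all probe sets called in either direction. Without the bright VAD 25-week replicates 1 and 2 the median SR log2 fold change at 25 weeks was 0.65, from the dim array alone. The 8 rises at 18 weeks numbered 1 without control replicate 1 or 2, 3 to 5 without any other array outside the dim pair, and 11 without the dim pair. Of all probe sets 0.137% and 0.141% were called without control replicates 1 and 2, and 3.98% without the dim pair.

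Srsf1, the founding SR protein, binds exonic enhancers and promotes recognition of the adjoining splice sites. Its brightest probe set, 1428099_a_at, read 10.17, 10.16 and 9.95 log2 units on the VAD 18-week arrays and 10.47, 10.69 and 9.39 on the VAD 25-week arrays, against 8.95, 9.0 and 7.94 on the controls. All 6 VAD arrays stood above all 3 controls. The log2 fold change was 1.09 ± 0.13 (SE, n = 3 per group) at 18 weeks (limma adjusted p 0.00351) and 1.55 ± 0.12 at 25 weeks (adjusted p 0.000113). Of its 7 measured probe sets 3 rose at 18 weeks and 5 at 25 weeks, by up to 1.62 for 1434972_x_at. With group alone the adjusted p of those 5 was 0.0857 to 0.641 at 25 weeks.

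Srsf3, a small SR protein that also takes part in mRNA export, had 4 of 6 probe sets rising at 18 weeks and 5 at 25 weeks. The probe set 1454993_a_at read 8.45, 8.24 and 8.40 on the VAD 18-week arrays and 8.91, 8.86 and 7.29 on the VAD 25-week arrays, against 7.08, 7.33 and 5.84 on the controls. The VAD 18-week arrays were clear of the controls, and the dim VAD 25-week array overlapped them. The log2 fold change was 1.12 ± 0.15 at 18 weeks (adjusted p 0.00808) and 1.60 ± 0.14 at 25 weeks (adjusted p 0.000175). The highest rise of Srsf3 was 1.89 ± 0.21 at 25 weeks for 1434512_x_at (adjusted p 0.000504). The probe set 1438215_at ran the other way, with 5.42, 4.99 and 4.49 at 18 weeks and 5.40, 5.24 and 4.38 at 25 weeks, against 5.64, 5.67 and 5.74 in controls. All its VAD arrays were below the controls, but neither fold change, -0.86 and -0.68, passed (adjusted p 0.202 and 0.148).

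Srsf6, an SR protein also known as SRp55, had 3 of 4 probe sets rising at 25 weeks. Its probe set 1416721_s_at read 5.92, 6.33 and 6.40 on the VAD 18-week arrays and 6.84, 6.75 and 6.61 on the VAD 25-week arrays, against 5.46, 5.47 and 2.32 on the controls. The lowest control is the dim array, and all VAD arrays stood above it and the other controls. The log2 fold change at 25 weeks was 2.32 ± 0.46 (adjusted p 0.00772, with group alone 0.249) and 1.45 without the dim pair (adjusted p 0.00292). It was the highest log2 fold change among the members, but without the dim pair it ranked 17, and Srsf3 1416151_at stood highest at 2.28. At 18 weeks 1416721_s_at did not pass (1.25 ± 0.48, adjusted p 0.23). The other probe sets of Srsf6 gave 0.65 ± 0.13 for 1448454_at and 0.72 ± 0.19 for 1416720_at at 25 weeks, which passed (adjusted p 0.00767 and 0.0288), and 0.24 ± 0.45 for 1447898_s_at, which did not (adjusted p 0.757). Of the 4, 1448454_at also rose at 18 weeks, by 0.72 ± 0.14 (adjusted p 0.0309).

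Srsf2, also known as SC35, had probe sets called in opposite directions at 25 weeks. The probe set 1427504_s_at read 8.36, 8.35 and 7.18 on the VAD 25-week arrays, against 6.89, 7.27 and 5.73 on the controls, and rose by 1.34 ± 0.21 (adjusted p 0.00298). The probe set 1415807_s_at read 5.96, 5.87 and 6.26 on the VAD 25-week arrays, against 7.19, 7.04 and 7.41 on the controls, and fell by 1.18 ± 0.21 (adjusted p 0.00465). The second had no overlap between the groups, while the dim VAD array overlapped the controls in the first. Both carry the suffix that Affymetrix gives to probe sets whose probes may match more than 1 transcript. With group alone their adjusted p was 0.294 and 0.16.

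**Figure D2:**
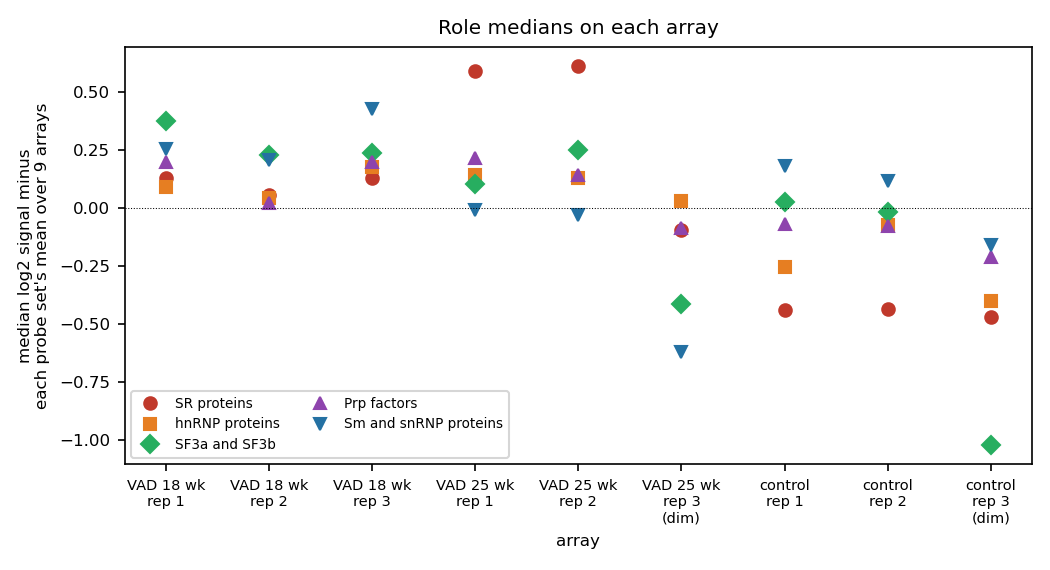
Median over each role's measured probe sets of the normalized log2 signal minus the probe set's mean over 9 arrays (y axis), for each array (x axis). SR medians lie between 0.06 and 0.13 on VAD 18-week arrays and between -0.10 and 0.61 on VAD 25-week arrays, against -0.47 to -0.43 on controls, and the lowest SF3 median, -1.02, is that of the dim control.

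The hnRNP proteins rose in 33.3% of their probe sets at 25 weeks. Of 51 measured probe sets of 19 genes 3 rose and 0 fell at 18 weeks, and 17 rose and 4 fell at 25 weeks, in 12 and 3 genes. The rises are 5.88% beside 1.33% of all at 18 weeks and 33.3% beside 8.54% at 25 weeks, and the falls 7.84% beside 6.32%, near the share of all probe sets. The median log2 fold changes were 0.27 and 0.32. The 25-week calls numbered 13 without control replicate 1 or VAD 25-week replicate 1 (beside 7.75% and 7.36% of all) and 12 without VAD 25-week replicate 2 (beside 6.61%). None of those calls were falls, and there were 0 falls under median centring or without the variance trend either. Leaving out the dim pair gave 17 rises and 6 falls, and array weights 27 and 9, beside 15.7% and 24.4% of all probe sets called. At 18 weeks 10 rose with the dim pair left out or under array weights, beside 3.98% and 4.02% of all called. The 4 falls were 2 probe sets of Hnrnpab (-0.53 and -0.44), 1 of Hnrnpf (-0.45) and 1 of Hnrnpul1 (-0.48).

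Hnrnpa2b1 encodes the A2 and B1 proteins, which bind pre-mRNA and also take part in RNA transport. Its probe set 1420365_a_at read 10.27, 10.41 and 10.38 on the VAD 18-week arrays and 10.37, 10.76 and 9.79 on the VAD 25-week arrays, against 8.79, 8.67 and 8.77 on the controls. The controls lay within a narrow band and every VAD array was above it. The log2 fold change was 1.49 ± 0.18 at 18 weeks (adjusted p 0.00485) and 1.56 ± 0.17 at 25 weeks (adjusted p 0.000478, with group alone 0.105). Its other 3 probe sets had log2 fold changes of 0.21 to 0.37 at 25 weeks and did not pass.

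Hnrnpk, which binds runs of C, showed the same split. The probe set 1460547_a_at read 10.42, 10.35 and 10.66 on the VAD 18-week arrays and 10.84, 10.91 and 11.65 on the VAD 25-week arrays, against 8.80, 9.15 and 10.31 on the controls. The dim arrays were the highest of their groups, and the groups did not overlap. It rose by 1.41 ± 0.16 at 18 weeks (adjusted p 0.00302) and 1.72 ± 0.15 at 25 weeks (adjusted p 0.000175, with group alone 0.141). The probe set 1423684_at rose at 25 weeks by 1.37 ± 0.20 (adjusted p 0.00199), while the other 2 had 0.22 and 0.26 and did not pass. Hnrnpa1, a splicing repressor that binds many silencer elements, had 2 measured probe sets with 0.30 and -0.40 at 25 weeks, neither past the threshold (adjusted p 0.567 and 0.222).

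The paraspeckle proteins Nono, Sfpq and Pspc1 form dimers with each other and hold nuclear paraspeckles together. Of 11 probe sets measured 1 rose at 18 weeks, and 2 rose and 1 fell at 25 weeks. The rises are 9.09% beside 1.33% of all at 18 weeks and 18.2% beside 8.54% at 25 weeks. The fall is 9.09% beside 6.32%. Nono 1448103_s_at read 6.01, 6.64 and 6.54 on the VAD 18-week arrays and 5.91, 5.31 and 5.20 on the VAD 25-week arrays, against 7.23, 7.02 and 7.82 on the controls. All VAD arrays were below all controls. It fell by 1.88 ± 0.27 at 25 weeks (adjusted p 0.00195, with group alone 0.11) and gave -0.91 ± 0.29 at 18 weeks (adjusted p 0.147). The other measured Nono probe sets gave 0.86 ± 0.37 and 0.41 ± 0.40 at 25 weeks and did not pass (adjusted p 0.138 and 0.524).

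Sfpq 1423795_at read 7.68, 7.48 and 7.68 on the VAD 18-week arrays and 7.72, 7.80 and 6.97 on the VAD 25-week arrays, against 6.76, 6.65 and 6.02 on the controls. All VAD arrays were above all controls, and the VAD groups overlapped each other. It rose by 0.89 ± 0.16 at 18 weeks (adjusted p 0.0243) and 1.02 ± 0.15 at 25 weeks (adjusted p 0.00202, with group alone 0.234). Sfpq 1423796_at rose at 25 weeks by 1.47 ± 0.32 (adjusted p 0.0118), and 4 other Sfpq probe sets spanned -0.47 to 0.28 without passing. The probe sets of Pspc1 had 0.38 ± 0.14 and -0.66 ± 0.28 at 25 weeks (adjusted p 0.0832 and 0.143).

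Arglu1, an arginine- and glutamate-rich protein linked to both transcription and splicing, rose at both times in 1 of 2 probe sets. The probe set 1433597_at read 9.0, 9.11 and 8.91 on the VAD 18-week arrays and 10.13, 10.00 and 10.38 on the VAD 25-week arrays, against 8.0, 8.37 and 8.94 on the controls. The VAD 25-week arrays were clear of all others, and 1 VAD 18-week array lay just below the highest control. The log2 fold change was 0.75 ± 0.15 at 18 weeks (adjusted p 0.0382) and 1.73 ± 0.14 at 25 weeks (adjusted p 0.000172, with group alone 0.0975). The other, 1433598_at, gave 0.08 ± 0.30 and 0.26 ± 0.28 and did not pass (adjusted p 0.931 and 0.565). At 25 weeks its change was 1.47 ± 0.31 below that of 1433597_at in the within-array fit described below (adjusted p 0.0171). Clasrp, an SR-rich partner of the kinase Clk4, read 7.56, 7.33 and 7.24 at 18 weeks and 6.23, 6.13 and 8.67 at 25 weeks, against 7.08, 6.74 and 9.51 in controls. The dim pair stood highest, so the groups overlap, and the fitted change at 25 weeks was -0.76 ± 0.16 (adjusted p 0.00998, with group alone 0.794).

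**Figure D3:**
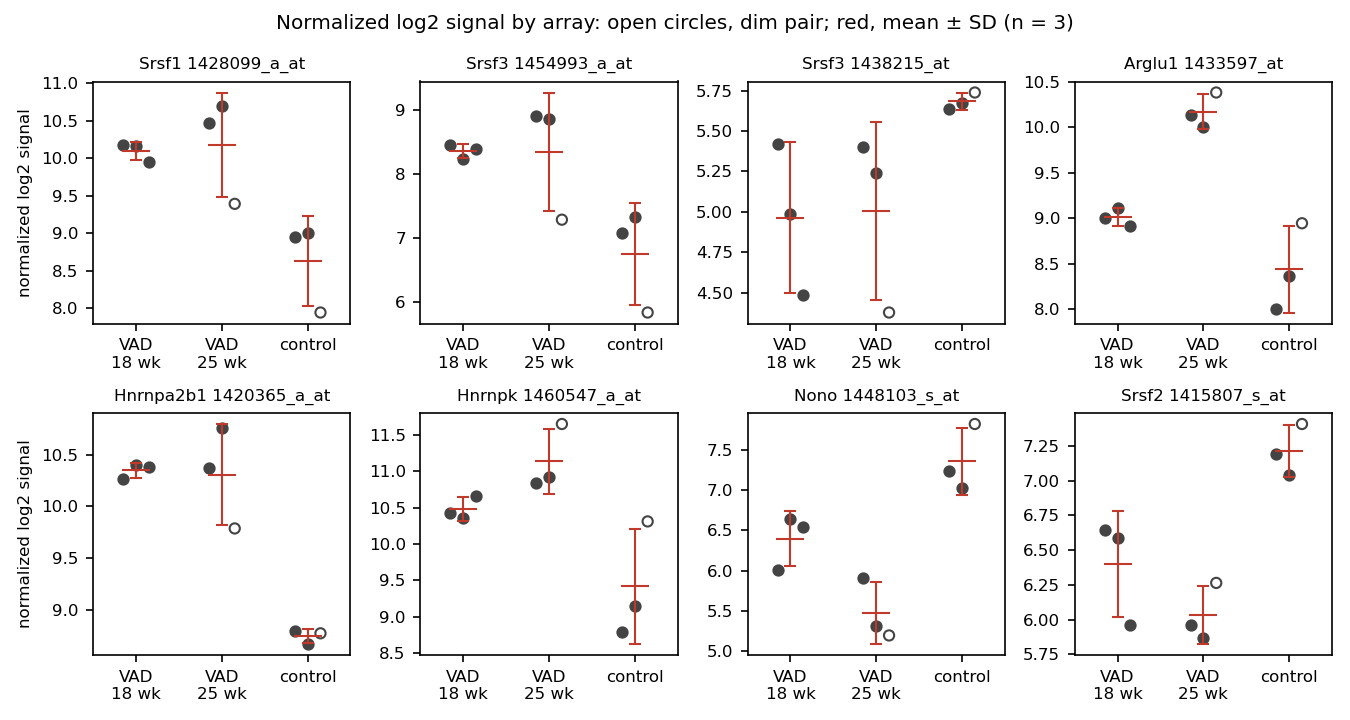
Normalized log2 signal (y axis) on each array for 8 member probe sets, with VAD 18 weeks, VAD 25 weeks and control from left to right; open circles are the dim pair and red marks the mean ± SD of 3 arrays. All VAD arrays are above all controls for Srsf1 1428099_a_at and Hnrnpa2b1 1420365_a_at, and below them for Nono 1448103_s_at and Srsf2 1415807_s_at.

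Among the factors of the 3′ splice site and branch point, SF3 probe sets rose more often than all probe sets at 25 weeks, and no U2AF probe set passed. U2af1, the subunit that reads the AG at the end of the intron, gave 1.06 ± 0.24 at 18 weeks and 0.73 ± 0.23 at 25 weeks, and both missed the threshold (adjusted p 0.0568 and 0.0539). U2af2, the subunit that binds the polypyrimidine tract, gave 0.65 ± 0.23 and 0.37 ± 0.22 (adjusted p 0.194 and 0.279). Of 26 SF3a and SF3b probe sets 1 rose at 18 weeks, and 7 rose and 2 fell at 25 weeks, with medians of 0.17 and 0.14. The rise at 18 weeks is 3.85% beside 1.33% of all. At 25 weeks the rises are 26.9% beside 8.54% of all and the falls 7.69% beside 6.32%. Without the variance trend or VAD 25-week replicate 2 there were 4 rises and 1 fall, beside 8.85% and 6.61% of all called. Sf3b6, a small subunit that touches the branch point, was the 1 gene of 44 with several measured probe sets in which all of them, 3 of 3, rose at 25 weeks, by 0.63 to 1.18. Without the dim pair 1 of those 3, 1417055_at, no longer passed (adjusted p 0.15).

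Sf3b1, the large SF3b subunit that clamps the branch point, rose at 25 weeks in 2 of 4 probe sets. The probe set 1418561_at read 4.51, 4.96 and 4.32 on the VAD 25-week arrays, against 3.28, 3.29 and 2.32 on the controls, without overlap. All 3 controls were below the filter level of 3.39, so this probe set passed the filter through the VAD arrays, and its rise (adjusted p 0.00642, with group alone 0.16) is given without a fold change. It was the 1 member probe set with all controls below that level. The brightest probe set, 1449138_at, read 10.79, 10.71 and 11.09, against 10.57, 10.51 and 10.76 on the controls, and did not pass (0.25 ± 0.10, adjusted p 0.104). Sf3b2 and Sf3a1 held the 2 falls. Sf3b2 1456040_at read 6.31, 6.52 and 7.12 on the VAD 25-week arrays, against 7.45, 7.30 and 7.79 on the controls, and fell by 0.86 ± 0.16 (adjusted p 0.00519), while Sf3b2 1438637_x_at rose by 0.74 ± 0.11 (adjusted p 0.00265). Sf3a1 1449333_at fell by 0.69 ± 0.21 (adjusted p 0.0481), a call lost without the dim pair (adjusted p 0.181).

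Prp factors rose in part. Of 29 probe sets of 12 genes 1 rose at 18 weeks, and 7 rose and 0 fell at 25 weeks, in Prpf19, a ubiquitin ligase of the spliceosome, Prpf4b, a kinase, and Prpf38b. The rises are 3.45% beside 1.33% of all at 18 weeks and 24.1% beside 8.54% at 25 weeks. Prpf4b 1436427_at read 5.21, 5.13 and 5.39 on the VAD 25-week arrays, against 3.47, 3.71 and 3.50 on the controls. The bands were narrow and apart, and it rose by 1.68 ± 0.32 (adjusted p 0.00615, with group alone 0.135). Its controls lay just above the filter level of 3.39. Of 6 measured Prpf4b probe sets 3 rose at 25 weeks, while 1425497_a_at gave -0.18 and did not pass. The change of 1425497_a_at was 1.06 ± 0.23 below that of 1455696_a_at in the within-array fit described below (limma adjusted p 0.0171). Prpf8, the scaffold of the catalytic centre, gave 0.06 ± 0.26 at 18 weeks and 0.09 ± 0.25 at 25 weeks and did not pass (adjusted p 0.94 and 0.83). Its 25-week value depended on the arrays: it read 9.23, 9.30 and 6.89 on the VAD 25-week arrays, against 8.69, 8.64 and 7.81 on the controls, and was higher without the dim pair (adjusted p 0.0198).

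Sm and other snRNP proteins had 3 calls at 25 weeks and a median below 0, and the count of calls was 6 when the dim pair was left out. Of 15 measured probe sets 0 changed at 18 weeks by limma, with 3 higher and 0 lower at an unadjusted p under 0.05. Leaving out the dim pair gave 4 rises at 18 weeks (beside 3.98% of all called), and array weights 3 (beside 4.02%). At 25 weeks 2 rose and 1 fell, which is 13.3% beside 8.54% of all and 6.67% beside 6.32%, with a median of -0.31. Without the dim pair, and likewise under array weights, 4 rose and 2 fell, beside 15.7% and 24.4% of all called. The median was -0.10 and -0.12. Under median centring the median was -0.08. The rises were those of the Sm protein gene Snrpe (0.93 ± 0.12, adjusted p 0.00139) and of Snrpa1 1417351_a_at (0.66 ± 0.13, adjusted p 0.00766). Snrpa1 encodes the U2 snRNP A′ protein, and only 1 of its 3 measured probe sets rose. Its 1417353_x_at gave -0.33 and its 1417352_s_at gave -0.13, neither of them called. Set against 1417351_a_at, their changes differed by -0.99 ± 0.21 and -0.78 ± 0.19 in the within-array fit described below (limma adjusted p 0.0164 and 0.0263). For 1417352_s_at that gap did not pass once the dim arrays were dropped (adjusted p 0.0542). The Sm protein gene Snrpd3 held the fall, in 1 of 3 measured probe sets. Its probe set 1422884_at read 7.90, 8.13 and 7.29 on the VAD 25-week arrays, against 8.68, 8.58 and 7.94 on the controls. Only the dim control overlapped the VAD 25-week arrays, and the fitted change was -0.63 ± 0.13 (adjusted p 0.0105, with group alone 0.44). Snrpd3 1422885_at gave -0.58 and 1449629_s_at gave 0.62 at 25 weeks, and neither passed. The change of 1449629_s_at was 1.25 ± 0.30 above that of 1422884_at in the within-array fit described below (limma adjusted p 0.0259). The single probe set of Snrpn, an Sm protein gene expressed mainly in brain, was below the filter on all groups' mean. In all, 18 member probe sets of 17 genes were below it, with means of 2.08 to 3.37 beside a filter level of 3.39, and the members nearest the limit were Prpf38a at 3.51 inside and Sf3b2 at 3.37 outside.

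Many member genes had probe sets that moved unequally at 25 weeks. Each further probe set of a gene was set against a reference probe set of that gene within each array. The reference was the brightest measured probe set without the suffix _x_at or _s_at, or the brightest of those where no other was measured. In some genes, such as Nono and Srsf2, it was therefore not the brightest of all. The difference was fitted with limma over all 9172 such pairs on the array. Of 105 member pairs 31 differed at an adjusted p under 0.05, which is 29.5%, beside 10.4% of all pairs. They belong to 22 of 44 genes, beside 14.5% of all 5542 genes with such pairs. The 44 genes hold 105 pairs and the 5542 genes 9172, so a member gene had more chances to differ. In 16 of them the further probe set changed more positively than the reference, and in 15 more negatively. The pair of Sf3b1 among them rests on 1418561_at, whose controls were all below the filter level. That of Srsf1 1457136_at rests on a probe set with a mean of 3.61 that lay below that level on every array but the dim pair, so it could not be tested without the pair. At 18 weeks 1 pair differed (0.952%, beside 0.174% of all), and between VAD 25 weeks and VAD 18 weeks 0 did, with 16 at an unadjusted p under 0.05 and 1 gene when the dim pair was left out. With group alone 0 member pairs passed at any time, with 10 at 18 weeks and 21 at 25 weeks at an unadjusted p under 0.05. Leaving out control replicate 1, VAD 25-week replicate 1 or VAD 25-week replicate 2 brought the 25-week count of genes to 13, 14 or 10. Over all genes the pairs called fell as well, from 950 to 390, 329 or 277.

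The widest gap was that of Nono, where the change of 1448103_s_at was 2.75 ± 0.37 log2 units below that of 1447160_at (adjusted p 0.00296). For Hnrnpk, 1448176_a_at changed by 1.5 ± 0.20 less than 1460547_a_at (adjusted p 0.00296). For Hnrnpa2b1, 1420365_a_at changed by 1.25 ± 0.18 more than 1433829_a_at (adjusted p 0.00371), and it was also the pair that differed at 18 weeks, by 1.32 ± 0.19 (adjusted p 0.0254). In each of these 3 pairs 1 probe set passed the threshold against control at 25 weeks and the other did not. For Srsf3, 1438215_at changed by 1.99 ± 0.33 less than 1416150_a_at (adjusted p 0.0071). For Sfpq, 1423795_at changed by 1.32 ± 0.22 more than 1438458_a_at (adjusted p 0.0071). Hnrnpab 1455855_x_at changed by 0.80 ± 0.15 more than 1415914_at (adjusted p 0.01). The array annotation used here does not place the probe sets along the transcripts, so which exons or ends they read was not analysed here.

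In 4 genes the calls themselves ran in opposite directions at 25 weeks: Srsf2, Sf3b2, Hnrnpab and Hnrnpf. Hnrnpab, an AU-binding hnRNP protein, rose in 1448144_at (1.52 ± 0.36, adjusted p 0.0165) and 1455855_x_at (0.37 ± 0.11, adjusted p 0.045) and fell in 1453849_s_at (-0.53 ± 0.13, adjusted p 0.0206) and 1415914_at (-0.44 ± 0.13, adjusted p 0.0433). For 1448144_at the VAD 25-week arrays read 5.94, 5.87 and 6.17, against 5.28, 4.84 and 3.31 on the controls, without overlap. The lowest control is the dim array, and it lay below the filter level of 3.39. Without the dim pair the change of 1448144_at was 1.37 above that of 1415914_at, against 1.96 with it. Hnrnpf, which binds runs of G, rose in 1456664_x_at (0.40 ± 0.10, adjusted p 0.0235) and fell in 1423382_a_at (-0.45 ± 0.12, adjusted p 0.0261). Group alone gave an adjusted p of 0.246 to 0.771 for these 6. Without the dim pair, 1455855_x_at, 1415914_at and 1456664_x_at no longer passed (adjusted p 0.0711, 0.0783 and 0.0632).

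**Figure D4:**
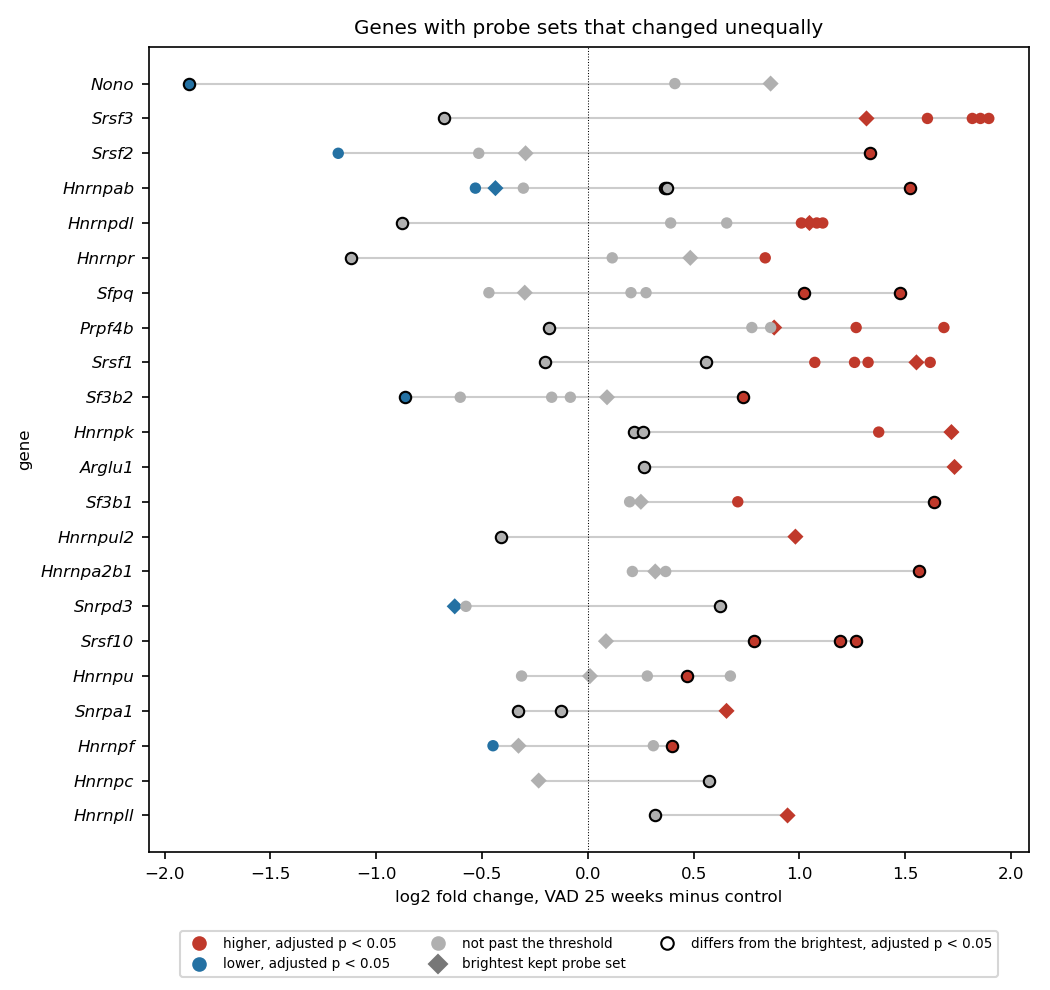
Log2 fold change at 25 weeks minus control (x axis) of every measured probe set of the 22 member genes with probe sets that changed unequally (y axis). Diamonds, labelled brightest in the figure, mark the reference probe set, with suffixes _x_at and _s_at used last, and black rims those that differ from it. Nono spans the widest range, -1.88 to 0.86.

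Other genes of the splicing pathway were each read by their brightest measured probe set, with suffixes _x_at and _s_at used last. At 25 weeks 9.08% of all 13616 genes rose and 8.01% fell on this reading, with a median of -0.03. Of 44 spliceosome helicases and Prp19 complex genes 5 rose and 2 fell (median 0.22), with Snrnp40, a U5 snRNP protein, at 1.47 ± 0.27 and the export helicases Ddx39a and Ddx39b at 0.94 ± 0.13 and 0.91 ± 0.17. Of 12 Lsm proteins, some of which form the ring on U6 RNA and decapping complexes, 2 rose and 0 fell (median -0.16). Lsm8 rose by 0.91 ± 0.15 and Lsm6 by 0.98 ± 0.25. Of 18 exon junction complex and mRNA export genes 4 rose and 1 fell (median 0.25), with Pnn at 1.17 ± 0.18 and Srrm1 at 1.04 ± 0.14.

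Among the 9 kinases that phosphorylate SR proteins or related factors, 2 rose and 1 fell at 25 weeks (median -0.09): Prpf4b, counted here too, by 0.88 ± 0.15, Clk1 by 0.73 ± 0.17, while Clk3 fell by 0.54 ± 0.15. Of 48 other splicing regulators 11 rose and 3 fell (median 0.17). Zranb2, a zinc finger protein that binds 5′ splice sites, rose by 0.95 ± 0.15 at 18 weeks (adjusted p 0.0136) and 1.61 ± 0.14 at 25 weeks (adjusted p 0.000175), and Tardbp, which binds UG repeats, by 1.32 ± 0.29 at 18 weeks (adjusted p 0.0476). At 18 weeks these lists held few calls: 0 of 44 helicases and Prp19 genes, 1 of 12 Lsm genes (Lsm8), 1 of 18 junction and export genes (Rbm8a), 0 of 9 kinases and 2 of 48 regulators, beside 1.37% of all genes rising.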

How the data were processed

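The deposited values were MAS5 signal intensities per probe set of 9 single-colour arrays, and the authors' software was MAS5 per the submitters' processing notes, with no version or scaling target given in the sources used here. Per the labels, cRNA was made from 100 ng of total RNA in 2 cycles of amplification. Probe sets were named through the platform annotation, and all 189 member probe sets matched RefSeq by gene ID. The 64 control probe sets were left out. Signals were taken as log2(signal + 3.259), the added value being the 25th percentile of all signals, so that fold changes of dim probe sets are understated, and quantile normalized. A probe set was tested if its mean over the arrays reached the 40th percentile, which left 27022. Groups were compared with limma 3.58.1 (R 4.3.3) through its moderated test with a variance trend and Benjamini-Hochberg adjustment over all tested probe sets, with a term for the 2 arrays whose trimmed mean was under 0.5 of the median. All 9 arrays shared 1 estimate of the spread with 5 residual degrees of freedom, and their number limits the precision. No deposited array repeated another.

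Pairs of probe sets of a gene were tested on their within-array difference, the brightest taken first among probe sets without the suffix _x_at or _s_at. Tested on simulated data, the probe set fit recovered 76 of 100 changes of 2 log2 units and 43 of 100 of 1 log2 unit at 25 weeks, and 78 and 30 of 100 at 18 weeks. The members, the 5 pathway lists, the 8 marker lists and the term for the dim pair were chosen with earlier results of these data known. Named were the probe sets of 15 genes fixed by name, per comparison the 10 highest and 10 lowest called with groups apart, genes called both ways, up to 8 genes with the smallest p in the pair test and up to 3 genes of each pathway list. The values of Srsf4, Srsf5, Srsf9, Srsf10, Srsf11, Srsf12, Hnrnpm, Hnrnpul1, Sf3a2, Sf3b6, Prpf19, Prpf38b, Snrpd3, Snrpe and Snrpa1, and of the Srsf6 probe sets other than 1416721_s_at, fall outside that rule, and these were chosen after their values were seen. Promoter windows came from RefSeq. The alternatives covered the dim pair term, normalization, filter, added value, variance trend, array weights, a replicate block and leaving out arrays.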

Additional observations from a re-analysis of the deposited data

Results flagged for a closer look

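The arrays carry 27 probe sets for poly-A control transcripts of bacterial origin, which no comparison above uses. Their median deposited signal was 101.4 on VAD 25-week replicate 1 and 144.5 on VAD 25-week replicate 2, against 3.87 to 4.85 on the control arrays. VAD 25-week replicate 3 read 4.12 and the VAD 18-week arrays 5.10 to 5.84. Without the 2 bright arrays 39 of 172 member probe sets were called at 25 weeks, 32 higher and 7 lower, beside 12.9% of all, and 29 of the 66 calls were among them. That leaves 1 VAD 25-week array, the dim one, whose spread is taken from the other groups.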

How the results depend on the processing

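With group alone 0 member probe sets were called in any comparison, and 0 genes held unequal probe sets. With the dim pair left out, 33 probe sets were called at 18 weeks, 68 at 25 weeks and 7 between the VAD groups, and 5, 23 and 1 genes held unequal probe sets. Of the 66 calls at 25 weeks, 55 were among those 68. Median centring gave 7 calls at 18 weeks, and the scale as deposited gave 0 at 18 weeks, 109 at 25 weeks and 33 between the VAD groups, with 5 genes unequal at 18 weeks under either. Without the variance trend the counts were 0 calls and 0 unequal genes at 18 weeks and 14 unequal genes at 25 weeks. Array weights gave 31 calls and 5 unequal genes at 18 weeks, 93 calls at 25 weeks, and 29 and 4 between the VAD groups. Of all probe sets 4.02%, 24.4% and 5.74% were called under array weights. Leaving out the 2 bright VAD 25-week arrays, chosen after seeing the data, left the dim one alone in its group and gave 39 calls at 25 weeks, 2 unequal genes at 18 weeks, and 5 calls and 6 unequal genes between the VAD groups. Leaving out 1 array at a time gave 3 to 34 calls at 18 weeks, 44 to 67 at 25 weeks and 0 to 6 between the VAD groups, and 0 to 5, 10 to 24 and 0 to 1 unequal genes. The share of all probe sets called was then 0.137% to 3.86%, 6.61% to 15.5% and 0 to 1.44%. The filter and the added value moved no count of calls by more than 1.5 times. The replicate block gave 2 calls and 0 unequal genes at 18 weeks, 55 calls and 17 unequal genes at 25 weeks and 0 between the VAD groups. Deviations of arrays with the same replicate number correlated at -0.0047 to 0.69, and 3 of 9 were over 0.1. Those 3 are the pairs of VAD 25-week and control arrays (0.52, 0.52 and 0.69), while arrays with different numbers reached 0.54. With the dim pair term the same 3 were -0.37, -0.36 and -1. The -1 is that of the dim pair and is fixed by the fit, since only these 2 arrays carry the term. It says nothing on whether the numbers pair the arrays.

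On the scale as deposited, 6 probe sets that fell at 25 weeks turned positive: Clasrp 1428961_a_at (0.19), Sf3b2 1456040_at (0.14), Sf3a1 1449333_at (0.44), Hnrnpab 1415914_at (0.49) and 1453849_s_at (0.46), and Hnrnpf 1423382_a_at (0.47). Hnrnpul1 and Snrpd3 also lay above control on that scale. Without the bright VAD 25-week arrays Prpf8 turned to -0.90, from 1 dim VAD array with the spread of the other groups. The cause was not tested. What limits these results is the number of arrays, the low signal of the dim pair and the state of VAD 25-week replicates 1 and 2. Those 2 arrays differ from all others in poly-A control signal and β-actin ratio. In them this difference and 25 weeks of VAD cannot be told apart.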
